A study of Homo sapiens with 6 samples.

Results

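The genes described here carry symbols of the form ZNF followed by a number and at most 1 letter, and they are the 195 such genes that have values both in the table of translational efficiency and in the table of ribosome occupancy. The translational efficiency table holds 8121 genes, 230 of them ZNF genes, and the occupancy table holds 9570 transcripts, 339 of them from ZNF genes. A further 144 ZNF genes were in the occupancy table only and 35 in the translational efficiency table only, and 6912 genes of any name were in both.

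ZNF proteins are named for the C2H2 zinc finger, a short repeated fold in which a pair of cysteines and a pair of histidines hold a zinc ion and whose residues contact DNA. Many members also carry a KRAB domain at the N-terminus, which recruits the corepressor TRIM28 (KAP1) and through it the methyltransferase SETDB1 and HP1 proteins, and these KRAB zinc finger proteins are known for silencing transposable elements. The finger genes lie in clusters, above all on chromosome 19, and arose by repeated duplication, so their coding sequences resemble each other along the finger array.

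Ribosomes were mapped in HEK293, a cell line derived from human embryonic kidney, by sequencing ribosome-protected fragments (RPFs) and total RNA, each in 3 replicates. All 6 libraries were labelled as cells with control siRNA, while the methods of the study name no siRNA for this experiment, and there was no other condition to compare with. Cells received cycloheximide, which stalls elongating ribosomes, at 100 µg/ml for 3 min before lysis. The methods of the study describe the replicates as repeats of a preparation that starts from plates of cells, and p-values measure the spread between these repeats.

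Translational efficiency is the authors' ratio of RPFs to total RNA, given for each replicate. Normalized ribosome occupancy is the number of in-frame RPFs at a codon, scaled to library size and divided by the abundance of the mRNA in total RNA (TPM), with the replicates combined, so it has no replicate error. The low values of each transcript were whole multiples of the worth of 1 read in each replicate, which gave back the read numbers. Each ZNF gene had between 165 and 23443 in-frame CDS reads. The median was 1602, against 1793 over all transcripts and 2823 over the genes in both tables. Of the 195 transcripts, 179 could be matched to a GENCODE transcript of the same gene and CDS length, and classes by sequence refer to these. A median of 3.85% of their CDS 30-mers occurred in transcripts of genes at other loci, called other genes below. The highest share was 92.4%. Overlapping genes on a strand counted as 1 locus, readthrough genes were left out, and 30-mers of the UTRs were not looked up. The sources used here do not say how reads with several matching places were treated.

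A pair of sequence stretches, in the zinc finger and in the KRAB domain, are shown first because the results on position return to them. The zinc finger repeat covers 28 codons, counted here from the codon of its first cysteine, with the second cysteine at codon 4 and the histidines at codons 17 and 21. Occupancy was highest at codons 19 to 21, the codons that lead to the last histidine of the finger. For the 5 ZNF genes with the KRAB pattern and the most CDS reads, the finger with the highest occupancy at these codons is given from codon 17 to codon 26, with codons 19 to 21 in capitals (GRCh37, coding strand).
ZNF460, chr19:57802633-57802662, plus strand: caccagCGGACTCACaatggagataagccc
ZNF91, chr19:23544902-23544931, minus strand: cataagAGGATACACactggagagaaaccc
ZNF761, chr19:53959211-53959240, plus strand: cataggAGAATTCATactggagagaaacca
ZNF813, chr19:53995275-53995304, plus strand: catcatAGACTTCATactggagagaaacct
ZNF12, chr7:6731181-6731210, minus strand: cattatAGAACTCATtcaggagagaaaccc
Each of these stretches lies in the last exon of its transcript.

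The second stretch lies in the KRAB domain. The 3 matched ZNF genes whose highest CDS codon was codon 32 share almost the same sequence there, and the capitals mark the 3 codons from codon 32, which are codons 15 to 17 from the first residue of the KRAB pattern.
ZNF519, chr18:14124368-14124397, minus strand: ttatatagagatGTGATGTTGgagaactac
ZNF695, chr1:247163269-247163298, minus strand: ttgtatagggatGTGATGTTAgagaactac
ZNF736, chr7:63796715-63796744, plus strand: ttgtatagggatGTGATGTTAgagaactat

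The level of translation was taken from the deposited ratio. The median translational efficiency of the ZNF genes was 0.265, 0.257 and 0.266 in replicates 1, 2 and 3, and that of all 8121 genes was 0.382, 0.380 and 0.388. On the log2 scale with 0.01 added, the ZNF median lay below the median of all genes by 0.51, 0.55 and 0.52, a mean difference of -0.53 ± 0.020 (SD, n = 3), so the gap was the same size in every replicate. Per gene, 128 members lay below the median of all genes in all 3 replicates, 44 lay above it in all 3 and 23 lay on both sides. With limma and Benjamini-Hochberg adjustment over all 8121 genes at an FDR of 0.05, 164 of the 195 members differed from the median of all genes, 84.1% against 89.3% of all genes. Of these, 126 were lower (64.6%, against 44.6% of all genes) and 38 were higher (19.5%, against 44.7%). When the difference had to exceed 2-fold, 56 members were lower (28.7%, against 18.2% of all genes) and 10 were higher (5.13%, against 23.3%). With 0.1 added in place of 0.01, the members lower by more than 2-fold numbered 26 (13.3%), against 10.2% of all genes.

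**Figure D1:**
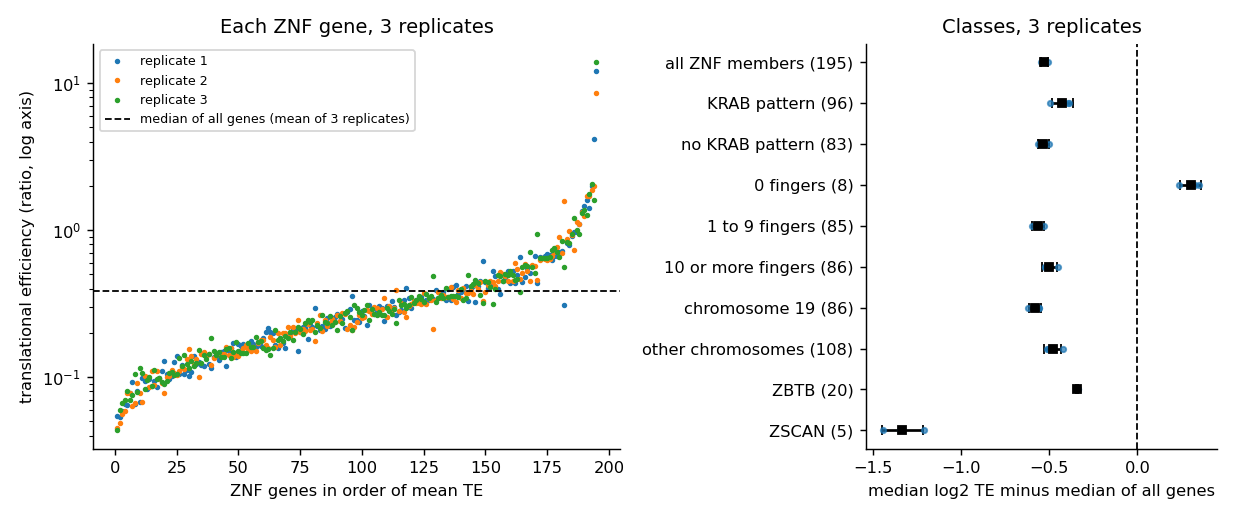
The left panel plots translational efficiency (ratio, log axis) of each of the 195 ZNF genes in 3 replicates, ordered by the mean, with the median of all genes as a dashed line. The right panel plots, for classes of ZNF genes and for ZBTB and ZSCAN genes (number of genes in brackets), the median log2 translational efficiency minus the median of all genes, with circles for replicates and squares with bars for their mean ± SD (n = 3). Most ZNF genes lie under the dashed line, and only the class without a finger match lies above 0, at 0.30.

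In translational efficiency, classes of ZNF genes defined by sequence lay below the median of all genes, except the smallest. The 96 members whose protein holds the KRAB pattern had a median difference of -0.43 ± 0.060 on the log2 scale (SD, n = 3), with 58 lower and 15 higher, and 1 was higher by more than 2-fold. The 83 members without it stood at -0.53 ± 0.032, with 55 lower and 21 higher. The 86 members with 10 or more fingers stood at -0.50 ± 0.042 and the 85 with 1 to 9 at -0.57 ± 0.035. Differences between these classes were not tested. The 8 members whose matched transcript held no C2H2 match stood apart at 0.30 ± 0.060, with 4 higher and 1 lower, and 3 without a call. The 86 members on chromosome 19 had a median of -0.58 ± 0.035, with 61 lower, 9 higher and 0 higher by more than 2-fold by limma, while the 108 on other chromosomes had -0.48 ± 0.051, with 65 lower and 29 higher. Shared sequence moved the median little among matched members. It was -0.51 ± 0.019 in the 98 members with under 5% of their CDS 30-mers in other genes. In the 81 with 5% or more it was -0.46 ± 0.079. The 16 members without a matched transcript could not be placed in this split and had -0.94 ± 0.046, with 13 lower and 2 higher. The mRNAs were also scarcer, with a median abundance index from the worth of a read of 0.731 of that of all transcripts. On this scale the genes in both tables had 1.45, members with the KRAB pattern 0.521 and those without it 1.02. The part of abundance in these differences was not tested.

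The 34 ZBTB, ZSCAN, ZKSCAN and ZFP genes in both tables had a median difference of -0.39 ± 0.016 (SD, n = 3), with 21 lower and 8 higher. Within them the 20 ZBTB genes stood at -0.34 ± 0.0050 and the 5 ZSCAN genes, which pair a SCAN dimerization domain with zinc fingers, at -1.34 ± 0.12. The 6 ZFP genes lay on both sides of the median of all genes, with 0.13, -0.39 and 0.06 in the 3 replicates. A list of 17 genes of the machinery that works with KRAB proteins was set beside them. Of the 16 measured, 10 were higher and 6 lower than the median of all genes, with a median of 0.83 on the log2 scale. Of all genes, 44.7% were higher and 44.6% lower. TRIM28, which the KRAB domain binds, had a translational efficiency of 0.797, 0.847 and 0.718 in replicates 1, 2 and 3. SETDB1, the methyltransferase, had 0.156, 0.118 and 0.168. CBX3, an HP1 protein, had 3.63, 3.54 and 3.67. In this ratio TRIM28 and CBX3 thus lay above the median of all genes in every replicate and SETDB1 below it. Their order differed in CDS occupancy per codon, with 0.0424 for TRIM28, 0.0479 for SETDB1 and 0.295 for CBX3. The median there was 0.0450 over all transcripts and 0.0524 over the genes in both tables.

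Members with a known role in RNA biology and translation lay on both sides of the median of all genes. Of 9 such members, 4 were higher, 4 were lower and 1 passed in neither direction, with a median of -0.08. Over all members 19.5% were higher and 64.6% lower, and over all genes 44.7% and 44.6%. ZNF598, the E3 ligase that marks collided ribosomes, had 0.140, 0.142 and 0.142 in the 3 replicates, 1.38 ± 0.047 (SE) below the median of all genes on the log2 scale (limma, adjusted p = 6.5e-06). ZNF346, which binds double-stranded RNA, had 0.150, 0.143 and 0.138 and lay as low. ZNF638, an RNA-binding protein that also silences unintegrated retroviral DNA, had 0.252, 0.224 and 0.234. These proteins with a low ratio stood beside others with a high one. ZNF207, a spindle assembly factor that binds microtubules, had 0.812, 0.869 and 0.832, and its 23443 in-frame CDS reads made it the member with the most reads. ZNF830, a factor found with the spliceosome, had 1.09, 1.10 and 0.945, higher than the median beyond 2-fold (limma, adjusted p = 0.0024). ZNF593, related to a yeast factor of ribosome assembly, had 0.661, 0.625 and 0.651, also above the median of all genes. The nucleolar protein ZNF330 had 0.382, 0.360 and 0.343 and did not differ from the median of all genes by the test (limma, adjusted p = 0.21).

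Chromatin and promoter factors lay mostly low, as did the family, with 64.6% of members and 44.6% of all genes lower. Of the 8 members listed as partners of chromatin complexes, 7 were lower and 1 was higher, with a median of -0.59. ZNF592, which forms a complex with ZNF687 and ZMYND8, had a translational efficiency of 0.127, 0.107 and 0.103, and ZNF687 had 0.204, 0.187 and 0.140. ZNF335, a component of histone H3K4 methyltransferase complexes, had 0.148, 0.144 and 0.137. ZNF274, which brings SETDB1 to the ends of zinc finger genes themselves, had 0.238, 0.263 and 0.277. The exception was ZNF451, a SUMO ligase with no C2H2 match in the transcript used, at 0.679, 0.640 and 0.659. ZNF217 (0.338, 0.334 and 0.357) and ZNF644 (0.347, 0.305 and 0.308) were close enough to the median of all genes to lose the call when a replicate was left out or when genes with more than 5% shared 30-mers were set aside, and ZNF281 did so without replicate 2. Among 5 promoter factors, 4 were lower and 1, ZNF24, was higher, with a median of -1.20. ZNF143, which binds near the start sites of many genes, had 0.159, 0.154 and 0.171, and the GC-box factor ZNF148 had 0.121, 0.117 and 0.118, so that the replicates of each lay within a narrow range far under the median of all genes.

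Among the KRAB proteins known from transposons, imprinting or single target genes, 3 were lower and 1 passed in neither direction. The share lower was 64.6% over all members and 44.6% over all genes. ZNF91, which silences SVA elements, lies on chromosome 19 from 23487793 to 23578273, has 31 finger matches and had 0.217, 0.158 and 0.156. Of its CDS 30-mers, 33.6% occur in other genes, so its reads are uncertain. ZNF746 (PARIS), a repressor of the gene of PGC-1α, had 0.0646, 0.0785 and 0.0808, among the 6 lowest. ZNF202 had 0.157, 0.158 and 0.135. ZNF445, which maintains imprinting, had 0.414, 0.365 and 0.428 and was indistinguishable from the median of all genes by the test (limma, adjusted p = 0.38).

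The ends of the range lay far apart. The lowest member was ZNF576, on chromosome 19 from 44100544 to 44105309, with 0.0547, 0.0449 and 0.0434. ZNF263 had 0.0531, 0.0490 and 0.0594, ZNF584 had 0.0586, 0.0557 and 0.0668, ZNF714 had 0.0652, 0.0585 and 0.0695, and ZNF587B had 0.0783, 0.0785 and 0.0694. These 5 and ZNF746 lay between 2.21 and 2.78 under the median of all genes on the log2 scale, and their replicates did not approach it. At the other end ZNF595, on chromosome 4 from 53180 to 88096, had 12.1, 8.57 and 13.8, the highest of the family. The next was ZNF718, also on chromosome 4, with 4.17, 1.98 and 1.60, so its replicate 1 stood apart. ZNF519 followed with 1.99, 1.87 and 2.07. Then came ZNF706 with 1.42, 1.71 and 1.77, the corepressor ZNF703 with 1.60, 1.70 and 1.28, and ZNF740 with 1.46, 1.25 and 1.37. ZNF595 and ZNF718 had no transcript of the same CDS length in GENCODE and could not be checked for shared sequence, ZNF519 shares 15.2% of its CDS 30-mers and ZNF706 shares 55.5%, while ZNF703 shares 0.229% and ZNF740 none. The largest spread between replicates was in ZNF674, with 0.311, 1.57 and 0.563, an SD of 1.2 on the log2 scale against a median of 0.12 over the members. ZNF850, with 0.440, 0.458 and 0.947, had replicate 3 apart, and both were without a call.

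The position of ribosomes along the mRNA was read from the occupancy table. Over the whole CDS the ZNF genes had a median occupancy of 0.0465 per codon, against 0.0450 over all transcripts and 0.0524 over the genes in both tables, so on this scale the family median lay between those values. The 96 members with the KRAB pattern had 0.0536 and the 83 without it 0.0394. Members with 10 or more fingers had 0.0530 and those with 1 to 9 had 0.0404. On chromosome 19 the median was 0.0552 and on other chromosomes 0.0399. Members with the KRAB pattern, with 10 or more fingers or on chromosome 19 thus lay above both medians in occupancy. In translational efficiency the same classes lay below the median of all genes. The first 75 codons had a median of 0.0402 over 194 members with a CDS over 300 nt, and the last 75 had 0.0390, against 0.0388 and 0.0399 over all transcripts. The ratio of the first window to the last was above 1 in 93 members and below 1 in 101. It was extreme in a few. In ZNF718 the first window averaged 0.836 per codon and the last 0.0120, and in ZNF595 they averaged 0.624 and 0.0242. ZNF358 had 0.0451 and 0.00311 and ZNF280D had 0.186 and 0.0137. These 4 were loaded at the start of the CDS and the next 4 at its end. In ZNF281 the first window averaged 0.00370 and the last 0.0882, and ZNF165, a cancer-testis antigen, had 0.0328 and 0.311. ZNF581 had 0.00564 and 0.0470, and ZNF180 had 0.00987 and 0.0764. ZNF581, ZNF358 and ZNF165 rest on 952, 443 and 646 CDS reads, and 19.4%, 9.26% and 24.4% of their CDS occupancy lay in the highest codon.

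With the CDS divided into 10 equal parts, members with the KRAB pattern had a dip in parts 2 to 4. Their median share of CDS occupancy was 10.0% in part 1, then 7.04%, 6.92% and 6.70%, 9.42% in part 5 and 11.2% in part 6, and it declined to 8.29% in part 10. Over all transcripts the same shares were 7.98% in part 1, 9.18%, 9.59% and 9.54% in the next 3 and 9.33% in part 6, so parts 2 to 4 were higher than part 1. The members without the KRAB pattern also rose over these parts, from 7.56% in part 1 to 9.16% in part 4. Occupancy over the finger array, from the first finger to the end of the last, was compared with the part from codon 11 to the first finger in the 152 members with at least 3 fingers and enough codons before them. The median was 0.0517 over the array and 0.0399 before it, and the array was higher in 97 members and lower in 55, with a median ratio of 0.31 on the log2 scale.

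**Figure D2:**
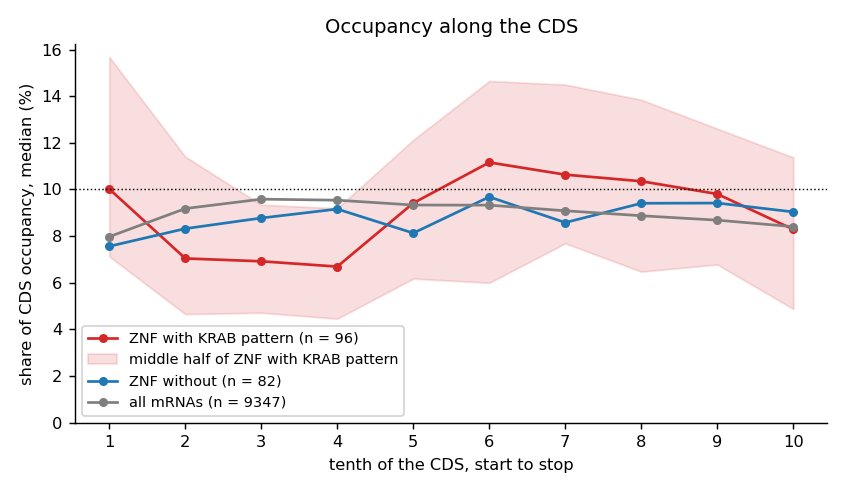
The plot gives the median share of CDS occupancy (percent) in each of 10 equal parts of the CDS for ZNF genes with the KRAB pattern (n = 96, shading from the lower to the upper quartile), ZNF genes without it (n = 82) and all mRNAs (n = 9347). The ZNF genes with the pattern start at 10.0%, dip to 6.70% in part 4 and reach 11.2% in part 6, while all mRNAs stay between 7.98% and 9.59%.

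Within the finger, occupancy followed the repeat. Aligned on 1673 fingers of 170 members and expressed relative to the mean of each CDS, occupancy in the P site was 3.68 at codon 19, 3.52 at codon 20 and 3.10 at codon 21. It was 1.92 at codon 18, 2.00 at codon 23 and 1.72 at codon 5, and lowest at codon 9, with 0.290. The mean of codons 19 to 21 was 3.44 and that of the other 25 codons 0.823, a ratio of 4.18. The choice of codons 19 to 21 was made after their values were seen, so the ratio is a description. The 3 codons of all the fingers of a gene made up a median of 5.73% of the CDS codons and held a median of 17.8% of its occupancy. In 153 of the 161 members with at least 3 fingers, codons 19 to 21 were above the other codons of the finger, in 125 by at least 2 times. The highest of the 28 codons was 19, 20 or 21 in 105 members. The highest codon of the whole CDS stood at one of these places in 67 members (41.6%), at another codon of a finger in 34 and outside the fingers in 60.

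Averaged over their occurrences elsewhere, the same codons had lower values, and the part of codon identity in the peak was not tested. In genes without a C2H2 match, the codons found at positions 19 to 21 had a mean relative occupancy of 1.05 when they stood in the P site and 1.20 when the next codon stood in the A site. Outside the fingers of the ZNF genes themselves these values were 0.973 and 1.04. Because fingers resemble each other, the profile was also taken only from codons whose 30-mer, from 12 nt before the codon, was found once. That means once in the CDS and in no transcript of another locus, as defined above. The profile then gave 3.06 at codons 19 to 21 and 0.791 at the others. In the 91 members with under 5% shared 30-mers it gave 2.94 and 0.911, and in the 79 with more, 3.88 and 0.744. Members with the KRAB pattern had 3.90 at codons 19 to 21, and members without it had 2.63. The last finger of an array, with 2.47, and the first, with 2.66, were lower than the fingers between them, with 3.67. The 132 other ZNF genes that are in the occupancy table only had 3.39 at codons 19 to 21 and 0.870 at the others, and 53 ZBTB, ZSCAN, ZKSCAN and ZFP genes of that table had 2.84 and 1.06. So every group of C2H2 genes looked at had the peak at the same place, and these sets were chosen after the profile was seen.

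**Figure D3:**
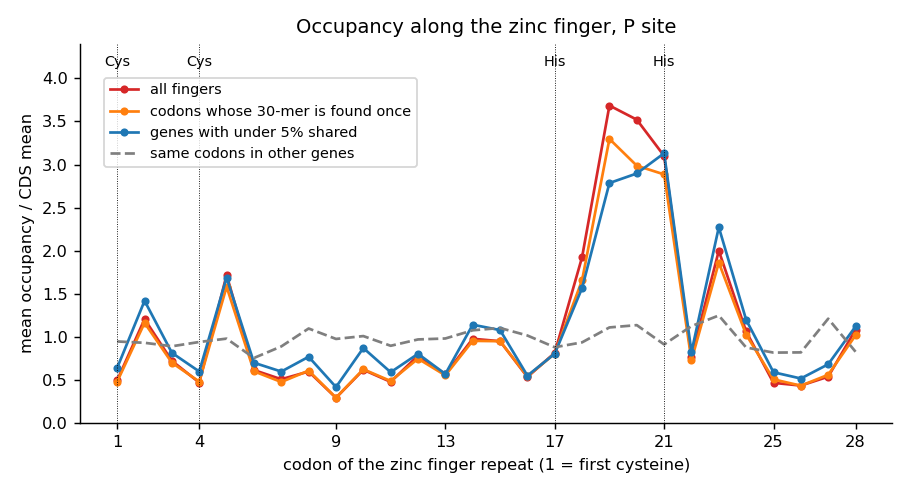
The plot gives mean occupancy relative to the CDS mean by codon of the zinc finger repeat, with codon 1 at the first cysteine and dotted lines at the cysteines and histidines, for all fingers, for codons whose 30-mer is found once and for genes with under 5% shared 30-mers; the dashed line gives the mean of the same codons in genes without a C2H2 match. All 3 curves rise at codons 19 to 21, to 3.68 for all fingers, while the dashed line averages 1.05 there.

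Individual members differed in how far the finger pattern shaped their profile. In ZNF709, with 18 fingers in the profile, codons 19 to 21 averaged 8.12 and the other finger codons 0.364, and these codons held 68.3% of the CDS occupancy in 8.41% of its codons. In ZNF91 the values were 4.14 and 0.540 over 31 matches, and the finger printed above, the second of the array, averaged 17.8 times the CDS mean at codons 19 to 21. For the finger of ZNF460 printed above this value was 8.77, and only 0.602% of the CDS 30-mers of ZNF460 occur in other genes. In 8 members codons 19 to 21 were not above the other finger codons, and none of the 8 had the KRAB pattern. ZNF526 had 0.715 at codons 19 to 21 and 1.10 at the other codons, and ZNF384 had 0.970 and 1.43. The log2 ratio ranged over the members from 4.48 in ZNF709 to -0.62 in ZNF526.

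In the 4 members with the most occupancy in 1 codon, that codon fell on a finger or on the KRAB pattern. Each is printed with 12 nt before that codon and with the codon in capitals (GRCh37).
ZNF30, codon 42, chr19:35422849-35422878, plus strand: ttgtacagagatGTGatgttggagaactac
ZNF547, codon 345, chr19:57889365-57889394, plus strand: caacaccaaagaGTTcacactggagaacgg
ZNF625, codon 239, chr19:12256499-12256528, minus strand: cgaatacatgaaAGAactcacactggagag
ZNF165, codon 450, chr6:28057126-28057155, plus strand: cactttagaattCACactggagaaaaaccc
The codon held 31.1% of the CDS occupancy in ZNF30, 26.8% in ZNF547, 26.6% in ZNF625 and 24.4% in ZNF165, against a median of 4.93% over the members and 4.95% over all transcripts. In ZNF547, ZNF625 and ZNF165 it was codon 20, 19 and 21 of a finger. In ZNF30 it lay outside the fingers, at codon 15 of the KRAB pattern. The translational efficiency of these genes lay on both sides of the median: ZNF165 had 0.631, 0.670 and 0.736 and was higher (limma, adjusted p = 0.00012), and ZNF625 had 0.119, 0.160 and 0.156 and was lower (limma, adjusted p = 7.7e-05).

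The KRAB domain had a peak of its own. The pattern searched spans 16 residues of the domain, starts at a tryptophan and most often began at codon 18 of the CDS (23 members) or at codon 22 (14 members). Over the 96 members, occupancy relative to the CDS mean was 8.23 at codon 15 of the pattern, 3.98 at codon 16 and 6.27 at codon 17, with medians over members of 3.37, 1.99 and 4.64. The mean of these 3 codons was 6.16, and that of the other codons from 9 before the pattern to codon 40 was 1.22. They were above the other codons in 85 members, above the CDS mean in 86 and at least 2 times the CDS mean in 72, and no member lacked a read there. They made up a median of 0.529% of CDS codons and held a median of 2.19% of the occupancy, with a highest share of 40.2% in ZNF30. The same codons in genes without a C2H2 match had a mean of 1.13 in the P site, and in ZNF genes outside the fingers, where the KRAB codons themselves are counted, 1.42. Where only codons whose 30-mer was found once were used, which left 62 members with a value, codons 15 to 17 averaged 5.38 and the others 1.06. Without the highest codon of each member the values were 4.98 and 1.27. The 60 other ZNF genes with the pattern that are in the occupancy table only gave 11.5 and 1.5. These codons were also chosen after their values were seen.

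**Figure D4:**
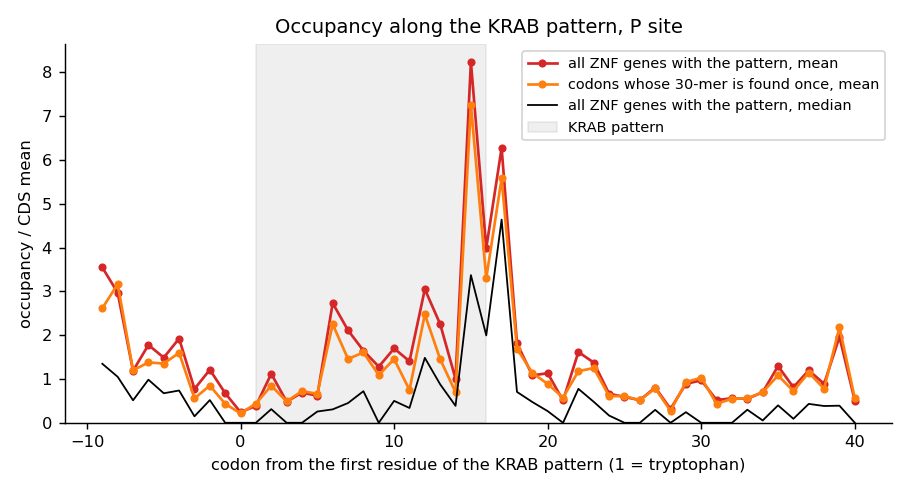
The plot gives occupancy relative to the CDS mean by codon from the tryptophan that starts the KRAB pattern (grey), as mean and median over the 96 ZNF genes with the pattern and as the mean over codons whose 30-mer is found once. The peak lies at codons 15 to 17, with means of 8.23, 3.98 and 6.27 and medians of 3.37, 1.99 and 4.64.

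In 10 of the 96 members the highest codon of the CDS was one of these 3. In ZNF519 they held 22.9% of the CDS occupancy, in ZNF695 28% and in ZNF736 13%, and the sequences of these genes are those printed above. None of the 3 codons had a 30-mer found once in these genes, so reads may belong to any of several ZNF mRNAs. ZNF595 and ZNF718, which had no matched transcript, also had their highest codon at codon 32, with 8.90% and 16.8% of the CDS occupancy, and together with ZNF519 they were the 3 members with the highest translational efficiency. ZNF584 and ZNF587B, which are among the 6 lowest, had the highest codon at codon 17 of the pattern with 30-mers found once at all 3 codons, so a peak there stood beside both ends of the range of translational efficiency.

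Upstream of the start codon the family carried more RPFs. Of the 195 members, 178 have a 5′UTR over 100 nt, and in its last 17 codons (51 nt, in frame with the CDS) their median occupancy was 0.00585 per codon, against 0.00195 over 6907 transcripts and 0.00231 over the 4907 of them that are in both tables. The median was 0.00333 in the 88 members with under 5% shared CDS 30-mers, against 0.00173 over all transcripts with under 5%. It was 0.00948 in the 75 members with 5% or more, against 0.00281 and 0.00291. This split says nothing of sharing in the 5′UTR itself, which was not searched. Relative to the CDS of the same mRNA the median was 0.127, against 0.0406 and 0.0426. No read lay in this window in 20 members, 11.2% (95% exact binomial interval 7.0 to 16.8), against 29.8% of all transcripts and 22.7% of those in both tables. The interval covers counting of members only. At the far end of the 5′UTR, in its first 17 codons, 61.2% of members had no read, against 71.3% of all transcripts, and the median was 0 in both. Members without the KRAB pattern had 0.166 relative to the CDS and members with it 0.0919. The related families had 0.0839. With 5′UTRs over 200 nt, which 107 members have, the median of the ZNF genes was 0.00326 and that of all transcripts 0.00199.

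**Figure D5:**
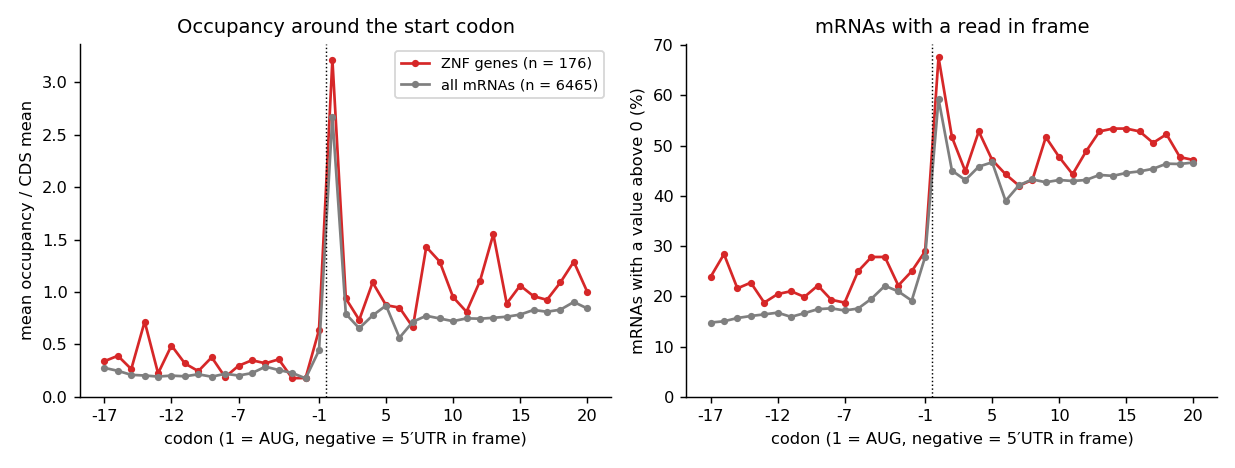
The left panel plots mean occupancy relative to the CDS mean by codon from 17 before the AUG (codon 1) to codon 20, and the right panel the percentage of mRNAs with a value above 0, for 176 ZNF genes and 6465 mRNAs in all with a 5′UTR over 100 nt. In the 5′UTR a read lay at a codon in 18.8% to 29% of ZNF genes, against 14.8% to 27.9% of all mRNAs. The ZNF share was higher at each codon, though close at codon -1 (29% against 27.9%). All mRNAs include genes without a translational efficiency value. At the AUG the means were 3.21 and 2.67.

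The position profile showed a step at the start codon in both. The mean relative occupancy at the AUG was 3.21 in 176 ZNF genes and 2.67 in 6465 mRNAs, and a read lay there in 67.6% and 59.3%. With any length of 5′UTR, the median at the AUG was 0.598 over members, 0.286 over all transcripts and 0.411 over the genes in both tables. Of the 5′UTR codons, the last before the AUG had 0.637 and 0.442, and the ZNF value at codon -14, 0.717 against 0.203, stood out. Without ZNF107 it was 0.259.

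The 6 members with the highest 5′UTR occupancy in this window were ZNF107 with 0.543 per codon, ZNF708 with 0.149, ZNF800 with 0.124, ZNF286B with 0.116, ZNF230 with 0.0969 and ZNF695 with 0.0579. The highest 5′UTR codon of the 4 members whose upstream sequence could be read is shown in capitals with the bases around it (GRCh37).
ZNF107, codon -14, chr7:64152269-64152298, plus strand: atcacctgtCTGgagcaaaaaaaagagccc
ZNF800, codon -15, chr7:127031633-127031662, minus strand: gcaatgAAGagcttcttacagtgaaagcaa
ZNF230, codon -7, chr19:44511198-44511227, plus strand: agacactgaagaCTCcaaaaagtagtagga
ZNF695, codon -5, chr1:247171211-247171240, minus strand: gaggacgctgggaccCCCaaaagctgggaa
In ZNF107 this codon, a CUG that differs from AUG by 1 base, held 57.6% of the window, and no stop codon in frame separates it from the AUG. The window was 8.27 times the CDS mean of ZNF107, while its translational efficiency was 0.203, 0.165 and 0.154. In ZNF800 the codon held 55.0% of the window and came directly after an ATG in the same frame. The last stop codon in frame stood at codon -10, between the peak and the AUG of the CDS. In ZNF230 the highest codon held 24.7%, and the last stop codon in frame stood before it, at codon -9. In ZNF695 it held 37.1%, with no stop codon in frame in the window. Of the CDS 30-mers of ZNF107, 21.3% occur in other genes, and of those of ZNF800 none. The 5′UTRs, where these peaks lie, were not searched for shared 30-mers.

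In 12 of 178 members (6.74%) the 5′UTR window held more occupancy per codon than the CDS, against 4.87% of all transcripts. Besides ZNF107, ZNF708 and ZNF800 they included ZNF644 with 1.56 times the CDS mean, ZNF576 with 1.14 and ZNF202 with 1.05. ZNF576, the member with the lowest translational efficiency, thus had at least as many RPFs per codon in this window as over its CDS. It had 72 reads in frame in the whole 5′UTR and 377 in the CDS. In the 6 members with the highest translational efficiency the window ranged from 0.0129 of the CDS mean in ZNF740 to 0.513 in ZNF595.

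The sequence of the window was read for 140 members in which it was the same in all matching transcripts. No stop codon in frame lay in it in 91 (65.0%), against 66.5% of all transcripts read in this way. An ATG in any frame lay in it in 35 (25.0%), against 17.3%. The median relative occupancy of the window was 0.211 in members with an ATG and 0.0925 in those without, and over all transcripts 0.187 and 0.0278. In the 48 members with a stop codon in frame and codons on both sides of it, mean occupancy was 0.0239 before the stop codon and 0.00833 after it, with medians of 0.00583 and 0.00260. Over all transcripts of this kind the means were 0.0154 before and 0.0199 after, and the medians 0.00194 and 0.00122, so that for all transcripts mean and median differed in direction. These shares describe the sequence and say nothing of which upstream frames were translated.

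In the 3′UTR the median occupancy of the members was 5.0e-05 per codon, against 1.3e-05 over all transcripts and 1.8e-05 over the genes in both tables. It was 3.3e-05 in members with under 5% shared CDS 30-mers, and the 3′UTRs themselves were not searched for shared 30-mers. In frame, 138 of 195 members had at least 1 read in the 3′UTR, and 3 members were over 0.01. These shares were not counted over all transcripts, but their median above 0 means that most of them had such a read too. The 3′UTRs of members were also longer, with a median of 510 codons against 372 over all transcripts. ZNF607 had 0.183 per codon from 4698 reads, more than its CDS with 0.0350 from 1115 reads, spread over 114 of the 563 codons with 10.8% in the highest codon. ZNF816 had 0.0226 with 35.2% in 1 codon, and ZNF700 had 0.0129 with 54.0% in 1 codon. In translational efficiency all 3 were lower than the median of all genes: ZNF607 had 0.163, 0.180 and 0.175, ZNF816 had 0.208, 0.218 and 0.179, and ZNF700 had 0.168, 0.158 and 0.145.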

How the data were processed

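Per the labels and the methods of the study, the authors trimmed reads with Cutadapt, removed PCR duplicates, used bowtie to place RPFs on hg19 transcripts, aligned total RNA with Hisat2, and counted with HTseq-count; the submitters' processing notes name cutadapt 1.16, Bowtie 1.1.2, TopHat2 2.1.1 and HTSeq 0.9.1. The deposited translational efficiency is a linear ratio whose formula the sources used here do not give. The deposited occupancy is a signal (other unit) of in-frame RPFs of 28 to 30 nt at a 13 nt offset, by library size and TPM. Of the occupancy transcripts, 31 had a broken list, 30 of them damaged at the break; none was among the 195 members.

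Translational efficiency was tested on log2(value + 0.01) with limma 3.58.1 in R 4.3.3 against the median of all values, Benjamini-Hochberg FDR 0.05, also beyond 2-fold (treat), with no filter; the test was checked on simulated data. Python 3.11.15, numpy 2.4.6, pandas 2.3.3, scipy 1.17.1 and Biopython 1.88 were used. Sequences came from GENCODE 44 lifted to GRCh37. Fingers were matched as 2 cysteines 2 to 4 residues apart and histidines 12 residues on and 3 to 5 apart, and KRAB by a pattern of 6 set positions in 16 residues.

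Members, lists and classes were chosen with earlier results of these data known. Named genes are lists by known role, the 6 highest and 6 lowest in translational efficiency, the 6 highest in 5′UTR occupancy, the 4 highest and 4 lowest in first to last window and 4 highest in 1 codon, the 3 highest in 3′UTR and 3 largest SDs. Genes named for finger or KRAB profiles beyond these were chosen after their values were seen. Listed genes that are not members have no values here. Alternatives are given at the end.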

Additional observations from a re-analysis of the deposited data

How the results depend on the processing

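Of the members' calls, 126 lower and 38 higher became 118 to 123 and 37 to 40 when a replicate was left out, 125 and 39 with a replicate block that removed each replicate's own median, and 126 and 39 with a pseudocount of 0.1; at 2-fold, 56 and 10 became 48 to 55 and 10 to 11, 56 and 10 with the block, and 26 and 9 with the pseudocount of 0.1 (13.3% and 4.62%, against 10.2% and 20.5% of all genes). RPF and total RNA of a replicate are paired within the deposited ratio, so no further pairing was possible. Among genes with under 5% shared 30-mers, which hold 98 members, 58 were lower (59.2%, against 44.3% of all such genes) and 25 higher (25.5%, against 44.4%), and 26 (26.5%, against 17.3%) and 5 (5.1%, against 20.8%) at 2-fold. No call changed sign. The family difference was -0.67 by means, -0.51 in members with under 5% shared 30-mers and -0.54 to -0.52 without a replicate. Means over members were 0.0772 for the first and 0.0585 for the last 75 codons. The 5′UTR median was 0.00326 with 5′UTRs over 200 nt. Without the 5 codons next to the start codon it was 0.00394, where all transcripts gave 0.000847. In members with under 5% shared CDS 30-mers the median of the full window was 0.00333, a setting added after seeing the data. The ratio of finger codons 19 to 21 to the others was 4.11 by medians over members, 3.23 in members with under 5% shared and, in settings added after seeing the data, 4.87 in fingers followed by another, 3.86 for codons found once, 3.75 without the highest codon, and 3.22, 4.54 and 2.86 in the first, middle and last finger; that of the KRAB codons was 6.68, 5.06 and 3.93 with under 5% shared, found once and without the highest codon, against 5.04. Of 55 named members, 4 lost and 6 gained a call under some setting, and none reversed. Occupancy has no replicates, so its values have no error. The whole 5′UTR held a median of 24 reads a member, and reads of the last 17 codons alone were not counted.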
